A study of Citrus unshiu with 2 samples.

Results

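CHH methylation inside introns was compared between shoots of satsuma mandarin (Citrus unshiu) kept under light drought and shoots of normally watered trees. The members described here are the CHH differential regions that the authors annotated to an intron and not to an exon, counted a single time each by chromosome, start and end. There were 2141 such regions among the 82479 CHH regions of the authors' deposited table, and they lay in 1261 genes. The light drought library came from shoots, labelled mature stems, of trees whose soil dried out until about 15% moisture was reached, over a treatment of 75 days, and the normal water library came from the same tissue of watered trees. Both groups were grown in root-limiting containers under a rain-proof tunnel, with 20 trees assigned to each, and the number of trees behind each library is not given. No allele or transgene is named in the labels.

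Plant cytosines can be methylated whether they stand before a G (CG), a base away from a G (CHG, with H for A, C or T) or in neither setting (CHH). CG methylation is copied at replication and is common in the bodies of plant genes without the other contexts. CHG and CHH methylation mark transposable elements and repeats, where CHG is kept by chromomethylases and CHH depends on CMT2 and on the small-RNA pathway called RNA-directed DNA methylation. Transposons can sit inside introns, so that an intron may carry all contexts while the exons beside it carry CG alone or none. In Arabidopsis, IBM2 and EDM2 act on the transcription of genes with such methylated introns.

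The data hold 1 bisulfite library per condition. No test between the conditions was therefore possible, the values describe these libraries, and the regions were chosen by the authors from the same contrast that is described here. Differences subtract the normal water value from the light drought value and are in percentage points. The read depth and the number of cytosines behind a gene's level are unknown, and a level of 0 cannot be told from a gene that lacks the feature. No sequence is shown, because no genome of the files' build was used here. No source used here names the build behind the coordinates, and none of the 1261 gene identifiers is paired with a name in the files or in the reference table used here.

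In most intronic regions CHH methylation was higher under light drought. Of the 2141 regions, 1678 were higher and 463 were lower, so that 78.4% were higher. Of all CHH regions listed, 80.2% were higher and 19.8% lower. The regions were selected by the authors on this same difference, so the shares describe the list. The median difference was 19.1 points among the higher regions, with quartiles of 14.2 and 25.2 points, and -15.9 points among the lower ones, with quartiles of -21.2 and -11.2 points. The values ran from -37.1 to 69.6 points. A difference of at least 20 points was listed for 765 higher regions, or 35.7% of the intronic ones, beside 37.4% of all CHH regions. It was listed for 133 lower regions, or 6.21%, beside 5.96% of all CHH regions.

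The intronic regions lay between the exonic and the promoter regions in the share of higher regions and in the size of the positive differences. Of the 2178 CHH regions that touch an exon, 73.7% were higher, with a median difference of 15.9 points among the higher and -13.8 points among the lower ones. Of the 14067 regions in promoters only, 82.4% were higher, with medians of 20.4 and -15.9 points. A difference of at least 20 points in the higher direction was listed for 20.2% of the exonic and 42.9% of the promoter regions. The 330 regions that touch both an exon and an intron, which the rule leaves out, had values near those of the exonic set, with 72.1% higher and medians of 16.2 and -14.3 points. These differences between lists were not tested, since regions of a single pair of libraries are not replicates.

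**Figure D1:**
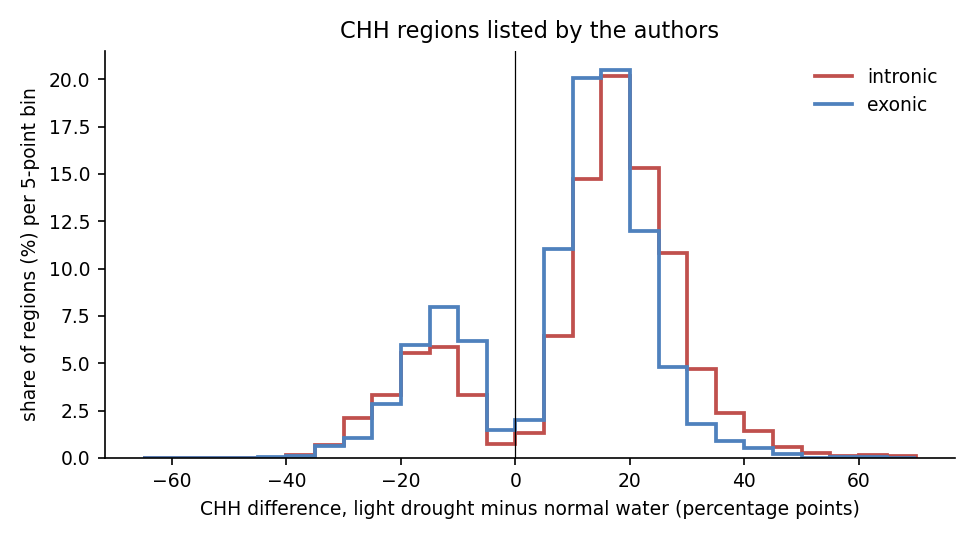
Share of regions per 5-point bin of the authors' CHH difference, light drought minus normal water, for the 2141 intronic and the 2178 exonic regions. Both lists have a large peak above 0 and a smaller one below 0, and the intronic list reaches further to the right, with 35.7% of its regions higher by at least 20 points against 20.2% of the exonic ones.

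The regions were short. The median length was 45 bp, the range 13 to 284 bp, and together they covered 116153 bp. Every region held at least 10 CHH cytosines, 58.9% held exactly that number, and the most was 54. The median density was 25 CHH cytosines per 100 bp, against 29.4 per 100 bp in exonic regions. Over all CHH regions the values were close to the intronic ones. There the median length was 47 bp, the median density 25 per 100 bp, and 56.0% held exactly 10 cytosines. Higher regions had a median length of 47 bp and lower regions of 41 bp. In 426 regions the intron belonged to more than 1 annotated transcript of the gene. The intron was the only feature touched by 2133 regions, while 7 also touched a 3' UTR and 1 a 5' UTR.

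On every numbered chromosome and on the unplaced sequence most regions were higher. On chromosome 8, 124 of 147 intronic regions were higher, or 84.4%, and on chromosome 6, 108 of 149, or 72.5%, with the other numbered chromosomes and the unplaced sequence in between. The unplaced sequence held 515 regions, the most of any, and chromosome 9 held 98. Chromosome 4 had the smallest median difference, at 15.7 points, and chromosome 8 the largest, at 18.0 points.

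The authors' p-values rest on cytosines of a single library per condition, so variation from tree to tree is not in them. The highest uncorrected p among the intronic regions was 0.0488. The share of higher regions was 77.1% of the 822 regions with an uncorrected p from 0.01 to 0.05 and 81.6% of the 288 below 0.0001. The corrected p was below 0.05 in 8 of the 2141 regions, or 0.374%, beside 0.270% of all CHH regions listed. Of these 8 regions 6 were higher, beside 204 of the 223 over all CHH regions. The corrected p was listed as 1 in 83.2% of the intronic regions.

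Individual regions are given by position, with starts counted from 1. Among the 269 intronic regions with at least 15 cytosines, 235 were higher and 34 lower, and the extremes of these are described here. In the authors' deposited table the largest positive difference was listed on chromosome 9 at 13805215 to 13805291, where 20 cytosines differed by 65.5 points, at a corrected p of 0.311. It was the only intronic CHH region of its gene, whose intron CHH level was 18.6% in the light drought library and 12.0% in the normal water library, while the exon CHH level was 0.25% under light drought against 0.21% under normal water. The same held on chromosome 9 at 6484898 to 6485021, where the authors' deposited table lists 26 cytosines with a difference of 52.2 points. There the gene stood at 23.95% in intron CHH under light drought and at 7.43% under normal water, with exon CHH at 0.35% under light drought against 0.18% under normal water. In both genes the exons thus carried almost no CHH in either library.

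The region on chromosome 1 at 2009421 to 2009508 combined a large difference with a small corrected p. In the authors' deposited table its 30 cytosines were higher by 44.6 points, at a corrected p of 0.00156. The gene had an intron CHH level of 25.8% with light drought and 10.4% with normal water, and an intron CHG level of 8.82% under light drought against 2.22% under normal water. The region with the lowest corrected p, 3.71e-08 in the authors' deposited table, lay on the unplaced sequence at 4712096 to 4712211, with 44 cytosines and a difference of 17.1 points. Its gene was low in CHH even under light drought, with an intron level of 3.03% against 0.43% under normal water, and its intron CHG level was below 1% in both libraries (0.94% under light drought against 0.67% under normal water).

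The other genes with the largest positive differences varied in how methylated their introns were. On chromosome 6 at 16241951 to 16242046, the authors' deposited table lists 17 cytosines with a difference of 47.5 points, in a gene at 6.27% intron CHH under light drought and 2.51% under normal water. On the unplaced sequence at 27543789 to 27543852, the authors' deposited table lists 21 cytosines with 43.3 points. That gene held 14 intronic CHH regions, all 14 higher, with an intron CHG level of 62.75% in the light drought library and 60.7% in the normal water library. A further region on the unplaced sequence, at 75201031 to 75201124, differed by 43.2 points over 15 cytosines in the authors' deposited table, and its gene stood at 15.5% intron CHH under light drought against 4.89% under normal water.

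The most negative differences were smaller in size than the most positive ones. In the authors' deposited table, 16 cytosines on chromosome 8 at 18727529 to 18727549 differed by -30.8 points and 16 on chromosome 6 at 8774798 to 8774864 by -28.3 points, each at a corrected p of 1. The introns of these genes did not share the size of the difference, with CHH at 11.1% under light drought against 8.98% under normal water for the gene on chromosome 8 and at 23.3% under light drought against 23.7% under normal water for the gene on chromosome 6. A region of 33 cytosines on the unplaced sequence at 13318468 to 13318565 differed by -27.8 points, at a corrected p of 0.0458 as given in the authors' deposited table. Its gene held 5 intronic regions, 3 of them higher, and its intron CHH level was 4.93% with light drought and 4.37% with normal water. In this gene the intron level was thus higher although the named region was lower. The other 3 of the 6 most negative regions, on the unplaced sequence and chromosomes 2 and 9, were listed between -24.7 and -23.0 points in the authors' deposited table.

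Of the remaining regions with the lowest corrected p, 1 was lower. In the authors' deposited table, 24 cytosines on chromosome 3 at 22727795 to 22727864 differed by -9.76 points, at a corrected p of 0.0229, in a gene with an intron CHH level of 0.32% in the light drought library and 0.26% in the normal water library. A region on chromosome 7 at 30872571 to 30872634, with 30.1 points over 21 cytosines at a corrected p of 0.0332 as given in the authors' deposited table, lay in a gene with 5.99% intron CHH under light drought against 0.53% under normal water. The intron CHG level of that gene was listed at 0 in both libraries. The region of 36 cytosines on chromosome 1 at 9983479 to 9983762 was the longest of all, at 284 bp, and was higher by 30.5 points, at a corrected p of 0.0366 as given in the authors' deposited table. It lay in a gene with 11 intronic regions, of which 10 were higher.

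The regions were spread over many genes, most of which held a single region. Of the 1261 genes, 861 held 1 region, 217 held 2, 85 held 3 and 44 held 4. The 54 genes with 5 or more regions held 415 regions, which is 19.4% of all intronic ones. The 11 genes with 10 or more held 144 regions. Of the 17941 genes with an intron CHH level above 0 in either library, 7.03% held an intronic region.

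Many genes with several regions held both directions. Among the 400 genes with 2 or more regions, 212 had only higher regions, 18 only lower ones and 170 both. Of the 861 genes with a single region, 660 had a higher and 201 a lower one. Neighbouring regions of the same gene lay 185 bp apart at the median, with quartiles of 40 and 767 bp, and none overlapped. Among the 253 neighbouring pairs at most 50 bp apart, 201 had the same direction, or 79.4%. Since 84.2% of the regions in these pairs were higher, their mix alone would give 73.4%. The share was 68.2% of the 198 pairs 51 to 200 bp apart, where the mix gives 64.6%. It was 66.0% of the 247 pairs 201 to 1000 bp apart and 66.5% of the 182 pairs further apart, where the mix gives 66.3% and 67.3%. None of these differences was tested. Pairs of opposite direction were also found side by side, with 52 of them at most 50 bp apart. In 15 pairs the second region began where the first ended.

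The gene with the most regions, orange1.1t00001 on the unplaced sequence, held 26 intronic CHH regions between 85120 and 114638. Of these, 22 were higher and 4 were lower, with differences from -20.8 to 33.1 points in the authors' deposited table. Its introns were methylated in all contexts, with CG at 79.2% with light drought and 80.0% with normal water and CHG at 80.15% under light drought against 80.5% under normal water. The intron CHH level was 23.5% in the light drought library and 20.9% in the normal water library, or 2.64 points apart. The exons were lower, with CHG at 18.1% under light drought against 15.8% under normal water and CHH at 6.59% under light drought against 4.18% under normal water.

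**Figure D2:**
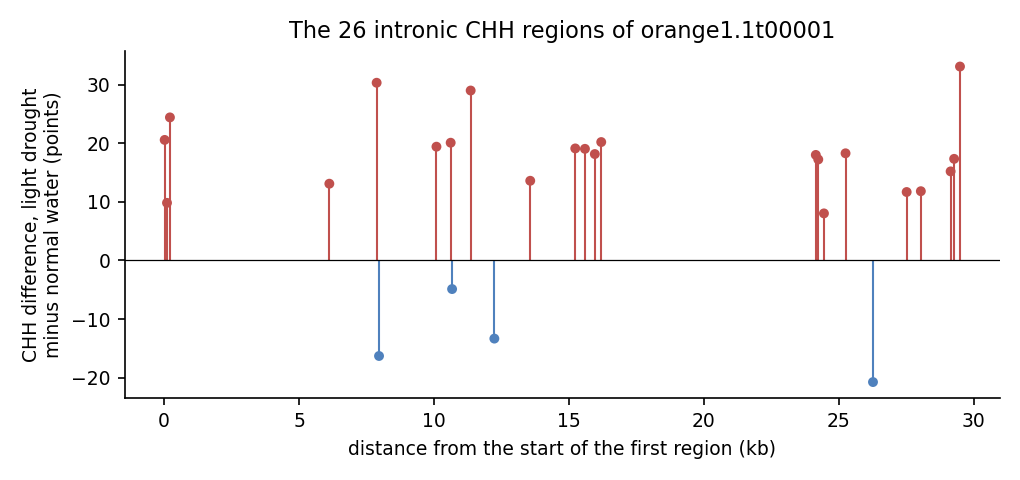
The 26 intronic CHH regions of orange1.1t00001, placed by the distance of their centre from the start of the first region in kb, with the authors' CHH difference (light drought minus normal water, points) on the vertical axis. The 22 higher regions reach 33.1 points, and the 4 lower ones, down to -20.8 points, lie among them.

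At the median, introns of the genes with a region carried CG, CHG and CHH methylation, and their exons carried mainly CG. The median intron CHG level of the 1261 genes was 16.8% with light drought and 14.8% with normal water. Over the 17941 genes with any intron CHH it was 0.86% under light drought against 0.77% under normal water. The median intron CHH level was 9.87% in the light drought library and 7.55% in the normal water library, beside 0.64% under light drought against 0.55% under normal water over the wider set. The regions were listed from the same reads as these levels, so the contrast between the sets is a description. Exons of the same 1261 genes had a median CHG level of 1.97% under light drought against 1.73% under normal water and a median CHH level of 0.61% under light drought against 0.50% under normal water. The exon medians of the wider set were 0.58% under light drought against 0.49% under normal water in CHG and 0.39% under light drought against 0.32% under normal water in CHH.

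CG levels of the exons were close to those of the wider set. The median intron CG level of the genes with a region was 68.35% with light drought and 67.3% with normal water, beside 59.3% under light drought against 58.75% under normal water over the 17941 genes. Their median exon CG level, 47.9% under light drought against 46.8% under normal water, was close to that of the wider set, at 48.6% under light drought against 48.0% under normal water. The quartiles of the exon CG level were 9.55% and 80.9% under light drought, beside 11.0% and 81.15% over the wider set. In exon CHG the upper quartile was 20.3% under light drought, beside 2.43% over the wider set, so the sets were less alike in that context.

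**Figure D3:**
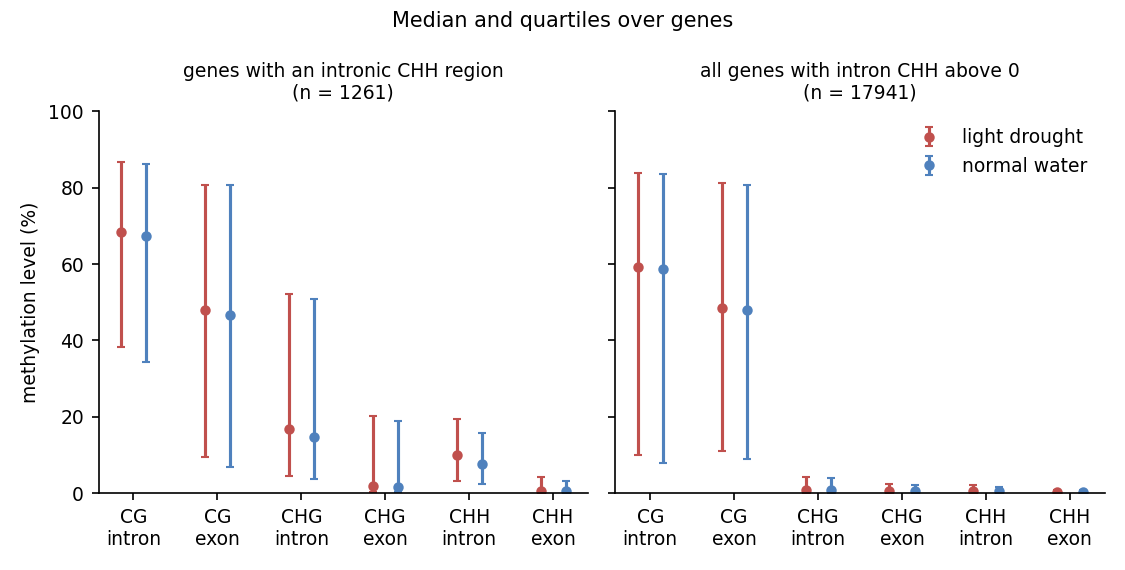
Median methylation level (points) and quartiles (bars) over genes, in percent, of introns and exons in each context, for the 1261 genes with an intronic CHH region and the 17941 genes with intron CHH above 0, under light drought and normal water. The intron CHG and CHH medians of the first set, 16.8% and 9.87% under light drought, stand above those of the wider set, 0.86% and 0.64%, while the exon medians in these contexts are at most 1.97% in either set.

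The genes with a region fell into kinds by the CHG levels of their introns and exons, averaged over both libraries. The bounds of 5% and 10% were chosen with the values known. In 316 genes, or 25.1%, the introns had at least 10% CHG and the exons less than 5%, a combination found in 774 of the 17941 genes, or 4.31%. In 377 genes, or 29.9%, introns and exons both had at least 10%, beside 14.3% of the wider set. In 330 genes, or 26.2%, both were below 5%, beside 73.2%, and 238 genes fell in between. Of the 774 genes with methylated introns and CHG-poor exons, 40.8% thus held an intronic CHH region, against 14.7% of those methylated in both and 2.51% of those low in both. The rule leaves out regions that also touch an exon, so these shares depend on the rule as well as on the genes. They were not tested.

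The genes with CHG-methylated introns and CHG-poor exons held 625 of the regions, of which 82.7% were higher. Their median intron CHH level was 15.8% in the light drought library and 11.85% in the normal water library, and their median exon CHH level was 0.34% under light drought against 0.26% under normal water. Exon CG was low as well, with a median of 7.15% under light drought against 3.87% under normal water. The genes methylated in both introns and exons held 730 regions, 76.6% of them higher, with a median exon CHH level of 11.8% with light drought and 10.3% with normal water. The genes low in CHG in both held 380 regions, 72.9% higher. Their intron CG level was 66.4% under light drought against 65.3% under normal water at the median, next to an intron CHH level of 1.745% under light drought against 1.195% under normal water. These levels are taken over all introns of a gene, so that the level of the intron that holds the region is not given by them.

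Up to an intron CHH level of 10%, genes with more intron CHH methylation more often held an intronic region. Genes were grouped by the intron CHH level averaged over both libraries. A region was present in 135 of 11808 genes above 0 and up to 1%, or 1.14%, in 211 of 1117 genes from 2 to 5%, or 18.9%, and in 245 of 920 genes from 5 to 10%, or 26.6%. From 10 to 20% it was 22.8% and from 20 to 30% it was 21.1%, with 152 of 719 genes. From 30 to 40% it was 35.3%, with 73 of 207 genes, and above 40% it was 31.2%, with 29 of 93. The share of higher regions also varied among these groups. In genes up to 1%, 62.2% of 143 regions were higher, with a median difference of 6.64 points, while from 5 to 10%, 84.1% of 416 regions were higher, with a median of 18.0 points. The average level includes the regions themselves, and these shares were not tested.

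**Figure D4:**
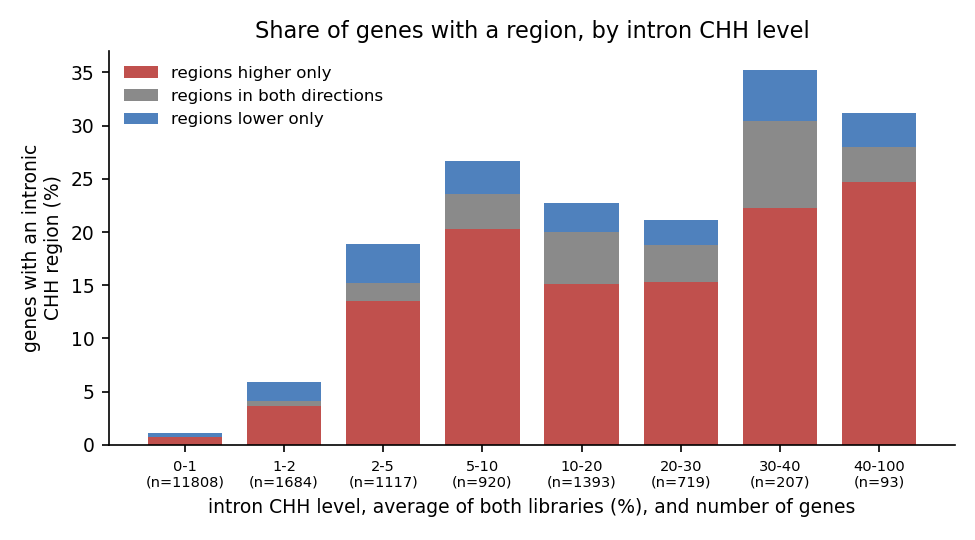
Share of genes with an intronic CHH region, in percent, by the intron CHH level averaged over both libraries, with the number of genes per group under each bar and the direction of the gene's regions as colours. The share is 1.14% in genes up to 1%, 26.6% from 5 to 10%, 21.1% from 20 to 30% and 35.3% from 30 to 40%. Genes with higher regions only make up most of each bar.

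The intron level as a whole followed the regions in part. Over the 1261 genes the mean intron CHH level was 13.2% in the light drought library and 10.6% in the normal water library, so that it was higher by 2.60 points (SD 3.76 over genes) or by 24.6% of the normal water level. Over all 29073 genes listed for both libraries the mean difference was 0.337 points, and over the 17941 genes with intron CHH above 0 it was 0.546 points. That was 15.7% of the normal water level in each of these sets. The intron CHH level was higher in 1052 of the 1261 genes, or 83.4%, beside 61.7% of the 17941. Regions and intron levels come from the same reads, so the larger difference in genes with a region is not a separate finding.

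Intron CHH levels of genes with higher regions and of genes with lower regions were not mirror images. The groups were sorted by CHH differences from the same reads, so the contrast is a description. Over the 17941 genes with intron CHH above 0, 61.7% were higher and 37.1% lower. In the 872 genes with higher regions only, the mean intron CHH level was 13.6% with light drought and 10.3% with normal water. Of these genes 91.4% were higher. In the 219 genes with lower regions only, the means were 8.57% under light drought against 8.63% under normal water, and 107 genes were higher while 110 were lower. The 170 genes with both directions stood at 16.7% in the light drought library and 14.6% in the normal water library, with 148 genes higher. Among genes with a single region, a higher region of 18.8 points at the median went with an intron difference of 1.92 points at the median, and a lower region of -14.5 points with one of 0.

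**Figure D5:**
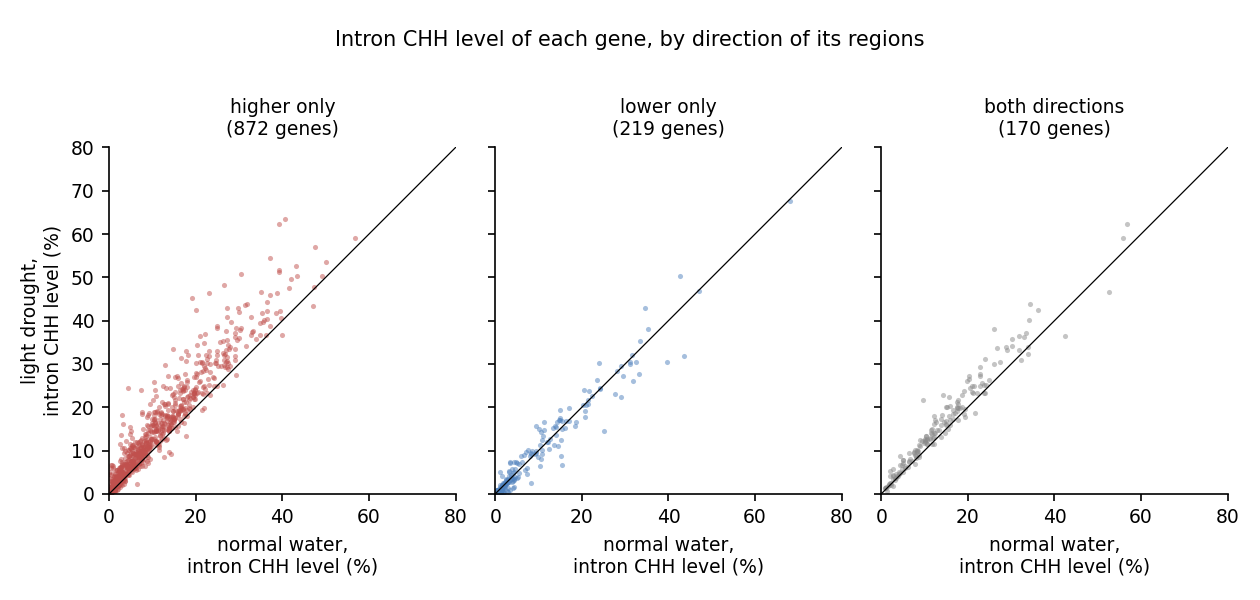
Intron CHH level of each gene under light drought (vertical) against normal water (horizontal), in percent, for the 872 genes with higher regions only, the 219 with lower regions only and the 170 with both; the line marks equal levels. Points of the first group lie mostly above the line (91.4% of genes), while 107 genes of the second group lie above it and 110 below.

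Exon CHH was higher under light drought in most genes with a region, whichever way their intronic regions pointed, as in most of the wider set. The mean exon CHH level was 4.87% with light drought and 4.16% with normal water, so that it was higher by 0.71 points (SD 2.47 over genes), and 68.5% of the 1261 genes were higher, beside 62.3% of the 17941. The share was 68.5% in genes with higher regions only, 64.8% in genes with lower regions only and 73.5% in genes with both. Over the 17941 genes the mean exon CHH difference was 0.348 points. That was 13.7% of their normal water level, beside 17.1% in the 1261 genes.

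The other contexts differed less in proportion. The mean intron CHG level was 30.2% in the light drought library and 28.9% in the normal water library, so that it was higher by 1.28 points (SD 5.31) or by 4.43% of the normal water level. It was higher in 62.4% and lower in 35.9% of the 1261 genes, beside 44.1% and 35.7% of the 17941. The remaining 21 and 3616 genes had equal levels, so that higher genes outnumbered lower ones in the wider set too. In genes with higher regions only the difference was 1.90 points and 67.3% were higher, while in genes with lower regions only it was -0.87 points and 43.8% were higher. The mean intron CG level was 61.1% with light drought and 59.5% with normal water, or 1.51 points higher (SD 7.28). It was higher in 57.3% and lower in 40.7% of the 1261 genes, beside 45.4% and 40.3% of the 17941, with 25 and 2580 genes equal. Exons differed by 0.39 points in CHG, at 18.8% under light drought against 18.5% under normal water, and by 0.75 points in CG, at 46.5% under light drought against 45.8% under normal water. Over the 17941 genes the mean differences were 0.276 (intron CHG), 0.451 (intron CG), 0.105 (exon CHG) and 0.626 points (exon CG). The exon CG difference was 1.63% of the normal water level in the 1261 genes, 1.34% in the 17941 and 1.71% over all 29073 genes. Over all cytosines the mean intron level was 19.3% in the light drought library and 16.96% in the normal water library, and the mean exon level 11.9% under light drought against 11.1% under normal water. These differences were 2.36 and 0.788 points, beside 0.557 and 0.381 points over the 17941 genes.

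Few of the genes differed by a large fixed size over the whole intron. A rule of 10 points in CHH was passed by 57 of the 1261 genes in the higher direction, or 4.52%, where the background over all 29073 genes was 1.04%, and by 2 genes in the lower direction, where it was 0.447%. In exon CHH, 14 genes were higher, beside a background of 0.898%, and 1 was lower, beside 0.430%. By 20 points, intron CHG was higher in 9 genes, beside 0.764%, and lower in 4, beside 0.561%. Intron CG was higher in 26 genes, or 2.06% beside 1.60%, and lower in 6, beside 1.13%. Exon CHG was higher in 6 genes and lower in 9, beside 0.709% and 0.729%, and exon CG was higher in 9 and lower in 8, beside 1.55% and 0.973%. Over the 17941 genes with intron CHH above 0, which all have introns, 1.69% were higher and 0.725% lower in intron CHH. In intron CG 2.34% were higher and 1.57% lower. In intron CHG 1.14% were higher and 0.825% lower, beside 0.714% and 0.317% of the 1261 genes. The CHH counts use the measure on which the regions were listed, so nothing is read from them.

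Smaller and larger sizes were counted as well. The shares beside these counts are over all 29073 genes, of which 11132 had intron CHH at 0 in both libraries. They are therefore not the shares of genes with methylated introns. By 5 points, intron CHH was higher in 232 genes, beside 2.99% of all genes, and lower in 11, beside 1.04%, while exon CHH was higher in 43, beside 2.80%, and lower in 5, beside 1.00%. By 15 points, intron CHH was higher in 17 genes, beside 0.468%, and lower in 0, beside 0.230%, and exon CHH was higher in 7, beside 0.406%, and lower in 0, beside 0.217%. These CHH counts again use the measure on which the regions were listed. By 10 points, intron CG was higher in 94 and lower in 34 genes, beside 4.98% and 3.82%, and exon CG in 59 and 31, beside 5.37% and 3.04%. Intron CHG was higher in 61 and lower in 25, beside 1.91% and 1.34%, and exon CHG in 27 and 16, beside 1.82% and 1.62%. Over all genes, too, more were higher than lower in each of these measures. By 30 points, intron CG was higher in 8 and lower in 1, beside 0.719% and 0.616%, and exon CG in 2 and 3, beside 0.715% and 0.619%. Intron CHG was higher in 2 and lower in 1, beside 0.440% and 0.385%, and exon CHG in 3 and 3, beside 0.430% and 0.464%.

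The genes at either end of the intron CHH difference showed how exons and introns can part. Cs8g17080 on chromosome 8 had an intron CHH level of 45.2% with light drought and 19.1% with normal water. Its exon CHH level was 0.23% under light drought against 0.08% under normal water, and its intron CHG level was 4.08% under light drought against 1.33% under normal water. Intron CG was 8.94% under light drought against 11.3% under normal water and exon CG 18.5% under light drought against 7.58% under normal water, so CG in the exons was higher under light drought too. The intron CHH difference of 26.1 points was the largest of the 1261 genes. It held 1 intronic region, of 75 bp, which was higher by 21.9 points in the authors' deposited table.

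In the other direction, Cs6g04420 on chromosome 6 stood at 31.9% in intron CHH under light drought against 43.5% under normal water, with a difference of -11.6 points. Its intron CHG level was 44.0% under light drought against 52.2% under normal water, its intron CG level 57.0% under light drought against 51.45% under normal water, and its exons were below 1% in CG, CHG and CHH in both libraries. Its single region of 78 bp was listed at -19.8 points in the authors' deposited table. Cs5g13730 on chromosome 5 was lower in the introns and exons, with intron CHH at 14.5% under light drought against 25.1% under normal water and exon CHH at 39.2% under light drought against 50.4% under normal water. Its exon CHG level was 92.3% under light drought against 89.9% under normal water. The next 5 genes after Cs8g17080 were higher by 21.82 to 23.35 points in intron CHH, and the next 4 after Cs5g13730 lower, at -9.22 to -6.57 points.

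Some intronic CHH regions coincided with regions of the other contexts. Of the 2141 regions, 35 shared at least 1 bp with a CHG region, or 1.63%, beside 0.628% of all CHH regions. With a CG region, 8 shared at least 1 bp, in 9 pairs, or 0.374%, beside 0.316%. The CG and CHG lists are shorter, with 2782 and 3250 regions, of which 65 and 195 were intronic by the same rule. Of the 195 intronic CHG regions 20 shared at least 1 bp with an intronic CHH region, or 10.3%. Of the 65 intronic CG regions 7 did, or 10.8%. Over all CHG and CG regions, 13.7% and 8.81% shared at least 1 bp with any CHH region. Of the 35 pairs with CHG, 19 were higher in both contexts, 9 were lower in both, 6 were higher in CHH and lower in CHG, and 1 was the reverse. Of the 9 pairs with CG, 4 were higher in both and 5 were higher in CHH but lower in CG. The directions thus matched in 28 of 35 pairs for CHG and in 4 of 9 for CG, and neither count was tested.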

How the data were processed

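Bisulfite sequencing of genomic DNA gave 1 library per condition. Per the labels' protocols, conversion used the EZ DNA Methylation-Gold kit and libraries the Accel-NGS Methyl-Seq kit; Bismark 0.20.1, bedtools 2.26.0 and SAMtools 1.4 appear, with no role, in the submitters' processing notes. The genome build, the annotation, the coverage minimum and what called the regions were not given in the sources used here. Per the file headers, the authors deposited gene levels in percent, and for each region a p-value, a corrected p-value and a signed difference, a score in percentage points. How the correction was made is not given; 6 columns of group levels were left out, since no label of either library matches their names. The direction of differences was read from the table name, light drought before control.

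Regions whose elements name an intron and no exon were kept. Starts were read as counted from 0, since the deposited overlap equalled end minus start in 2133 of 2141 regions and was longer in none. Genes were matched by identifier (29073 in both tables). SDs are over genes, which are not replicates. Depth is unknown, so no interval was computed for a level. Genes were counted by a fixed size of 10 points in CHH and 20 in CG and CHG. At most 2 identifiers per direction are printed: the genes with the most regions and, where a region points the same way, with the extreme intron CHH differences. The genes of a DNA methylation and flowering list could not be found, as no identifier is paired with a name. Regions named are the 6 largest in each direction with at least 15 cytosines and those with the lowest corrected p. Members and lists were chosen with earlier results of these data known. Values were computed in Python 3.11.15 with pandas 2.3.3 and numpy 2.4.6, figures drawn with matplotlib 3.10.9, and the size rule, the overlap and the direction classes were tested on simulated data. Alternatives changed which regions count as intronic, the p and size limits, the sequences used, the counting per gene, the genes averaged, the mean against the median, and the overlap required.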

Additional observations from a re-analysis of the deposited data

How the results depend on the processing

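No paired analysis was possible because there is 1 library per condition, which also means that leaving a library out was not an option. Of 86 recalculated values, 48 did not move and 38 moved; the causes were not tested. A share counted as moved outside its exact 95% binomial interval (76.6 to 80.1%), which covers counting only and takes as independent regions that are not, and other values when they changed by more than 1.5 times. The share of higher regions was 85.2% with differences of at least 20 points and 75% of the 8 regions with a corrected p below 0.05, and 76.9 to 79.6% under the other settings. The settings with a corrected p, with neighbours merged within 50 bp and with gene levels on numbered chromosomes only were chosen after the data were seen.

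As medians, the intron differences were 0.68 (CG), 0.63 (CHG) and 1.73 points (CHH) and the exon differences 0.29 (CG), 0.07 (CHG), 0.14 (CHH) and 0.31 points (all cytosines). With levels of at least 5%, the exon means were 0.775 (CHG) and 2.39 points (CHH).

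At 10 points, or 5 in CHH, the higher and lower counts were 94 and 34 (intron CG), 59 and 31 (exon CG), 61 and 25 (intron CHG), 27 and 16 (exon CHG), 232 and 11 (intron CHH) and 43 and 5 (exon CHH). With 30 points, or 15 in CHH, they were 8 and 1, 2 and 3, 2 and 1, 3 and 3, 17 and 0, and 7 and 0 in the same order. More genes were thus higher than lower in exon CHG at 10 points, against 6 and 9 at 20, and fewer in exon CG at 30 points, against 9 and 8 at 20. Above 0 in both libraries, 5 genes were lower in exon CG and 3 higher in exon CHG. Requiring 50% of the CHH region to be shared left 5 CG pairs.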

Other observations

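The flanks of the 1261 genes with an intronic region were also more methylated than those of all genes. Their mean promoter CHH level was 14.6% in the light drought library and 11.8% in the normal water library, so that it was higher by 2.78 points (SD 4.66 over genes), beside 2.40 points over all 29073 genes. That was 23.6% of the normal water level, beside 23.2% over all genes. Their downstream CHH level was 10.4% under light drought against 8.56% under normal water, or higher by 1.81 points, beside 1.52 points. That was 21.1% of the normal water level, beside 21.5% over all genes. In proportion the CHH differences of the flanks were thus close to those over all genes. The promoter CHG level was 30.7% with light drought and 29.0% with normal water, and the promoter CG level 37.8% under light drought against 36.3% under normal water. Over all genes promoter CHG was 25.3% under light drought against 23.9% under normal water. Promoter CG over all genes was 31.9% under light drought against 30.5% under normal water. The median promoter CHH level was 12.0% under light drought against 8.83% under normal water, beside 8.44% under light drought against 6.08% under normal water over all genes.

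CHH regions in other parts of the same genes were common. An exon held a CHH region in 223 of the 1261 genes, or 17.7%, beside 6.23% of the 17941 genes with intron CHH above 0. A promoter held at least 1 in 476 genes, or 37.7% beside 30.3%, and a downstream flank in 339, or 26.9% beside 18.9%. Of the 978 promoter regions of these genes 813 were higher under light drought, and of the 362 exonic regions 278 were. Over the whole CHH list, 11592 of the 14067 regions in promoters only and 1606 of the 2178 exonic regions were higher. A CHG region lay in an intron of 122 genes, or 9.67% beside 2.24%, with 100 of 171 such regions higher. A CG region lay in an intron of 32 genes, or 2.54% beside 0.814%, with 22 of 43 regions higher. The counts in these genes take every region that names the feature, also where it touches an exon. For regions in introns without exons, a narrower set, 105 of 195 in CHG and 37 of 65 in CG were higher over all genes. These totals are not the whole from which the 171 and 43 regions come. These shares were not tested.

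Of the 54 genes with 5 or more intronic regions, which were picked by the same CHH difference, most were higher in intron CHH. Their mean level was 18.8% in the light drought library and 15.5% in the normal water library, and 53 of the 54 were higher, beside 83.4% of the 1261 genes and 61.7% of the 17941. Their exons stood at a mean of 5.88% under light drought against 4.30% under normal water in CHH. Of the 54 genes 45 were higher in exon CHH, beside 68.5% and 62.3%. The exon medians were 1.395% under light drought against 0.905% under normal water, and the median difference was 0.36 points. The gene with 19 regions had the largest exon CHH difference of the 54 and so weighs on their mean. It stood at 33.3% under light drought against 0 under normal water, with exon CG and CHG at 0 in both libraries. The number of cytosines behind that level is unknown.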
